A study of Mus musculus with 40 samples.

Results

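The MYC and MAX network genes described here are Myc, Mycn, Max, Mxd1, Mxd4, Mxi1, Mnt and Mlx. They were taken by symbol, as a list proposed with earlier results of these data known, and all 8 were found among the 21950 genes of the RNA-seq table. RNA was sequenced from mouse CD4+ T cells in 24 libraries, which fall into 8 groups of 3. The study compared the response of conventional T cells (Tconvs), thymus-derived regulatory T cells (tTregs) and regulatory T cells induced in culture (iTregs) to stimulation through the T cell receptor, and asked how calcium signaling bears on it.

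Tconvs and tTregs came from the spleens of 2- to 4-month-old Foxp3-GFP reporter mice on a C57BL/6 background, and each was sequenced resting and after activation. iTregs were induced from naive CD4+ T cells of 6-week-old mice over 4 days with 2 ng per ml TGF-β, IL-2 and antibodies to CD3 and CD28, sorted on the Foxp3 reporter and rested for 1 day in IL-2. These rested cells were sequenced as they were, after restimulation through CD3 and CD28, and after restimulation with CM-4620, which blocks the ORAI calcium channel, or with cyclosporin A (CsA), which blocks calcineurin and thereby NFAT. The iTregs thus differ from the other cells in days of culture, cytokines and age of the mice as well as in type, and these cannot be told apart. The labels do not say whether the 3 libraries of a group came from separate animals or cultures, so p-values measure the spread between these libraries, which may be technical.

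MYC and its relative N-MYC are basic helix-loop-helix leucine zipper transcription factors that bind DNA as dimers with MAX, mostly at E-boxes with the core CACGTG, and raise the transcription of genes of cell growth, nucleotide and polyamine synthesis and ribosome production. MXD1, MXD4, MXI1 and MNT compete for MAX and recruit SIN3 and histone deacetylases, so that they repress at the same E-boxes. MLX pairs with the MONDO proteins MLXIP and MLXIPL, which sense glucose metabolites, and also with some MXD proteins and MNT. In T cells MYC is known for its rapid induction by antigen receptor signaling, on which the growth of activated cells depends.

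In the GRCm38 genome Myc lies at chr15:61985391-61990374 on the plus strand, Mycn at chr12:12936093-12941914 and Max at chr12:76937269-76962201, both on the minus strand. Mxd1 lies at chr6:86647042-86669161 (minus), Mxd4 at chr5:34173883-34187720 (minus), Mxi1 at chr19:53310518-53375810 (plus), Mnt at chr11:74830920-74845725 (plus) and Mlx at chr11:101087277-101092207 (plus). Values are counts over the exons of each gene. Exons of Mlx share 19.3% of their bases with Psmc3ip on the opposite strand, those of Mxd4 share 6.06% with Gm42846 and those of Mxi1 share 2.84% with Gm10197. Whether the counting used strand is not given in the sources used here, so reads of these pairs may be mixed, and the values of Mlx are the least certain.

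The E-box that the network binds also stands in front of some of its own genes, which is why the promoters of Mxd4, Mnt and Mlx are shown. RefSeq promoters were matched for 7 of the 8 genes, with 9 windows in all since Mxi1 has several starts. Myc had no matched promoter, so it was not searched. The word CACGTG, which reads the same on both strands, was found in the 250 bases before the start in 1 window each of Mxd4, Mnt and Mlx, and 6.02% of the 32851 promoters of the same length hold it. It begins 219 bases before the start of Mxd4, 123 before that of Mnt and 40 before that of Mlx. The windows are chr5:34187711-34187960 on the minus strand for Mxd4, chr11:74830674-74830923 on the plus strand for Mnt and chr11:101087040-101087289 on the plus strand for Mlx, all in GRCm38.p6, written 5′ to 3′ with the E-box in capitals. A match of letters is a description and does not show that a factor binds there.
Mxd4: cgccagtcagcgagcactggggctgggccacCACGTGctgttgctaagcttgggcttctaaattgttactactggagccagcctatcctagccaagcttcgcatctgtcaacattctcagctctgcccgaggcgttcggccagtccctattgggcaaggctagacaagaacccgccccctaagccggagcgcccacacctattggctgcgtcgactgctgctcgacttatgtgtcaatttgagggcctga
Mnt: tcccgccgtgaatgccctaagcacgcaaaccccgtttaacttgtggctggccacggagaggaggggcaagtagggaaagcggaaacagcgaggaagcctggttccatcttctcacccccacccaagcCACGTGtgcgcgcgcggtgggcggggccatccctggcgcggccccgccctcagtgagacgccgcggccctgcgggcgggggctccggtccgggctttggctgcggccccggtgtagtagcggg
Mlx: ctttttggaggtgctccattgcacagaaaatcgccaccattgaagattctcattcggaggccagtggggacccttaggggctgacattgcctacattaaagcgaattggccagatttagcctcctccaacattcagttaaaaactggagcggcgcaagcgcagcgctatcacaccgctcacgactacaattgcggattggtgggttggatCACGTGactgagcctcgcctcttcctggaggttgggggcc

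The deposited values are counts divided by 1 size factor per library, called normalized counts here. The libraries held from 5256800 to 15685234 reads on genes, with the tTregs the shallowest, and 3 reads, taken as the floor of detection, were worth from 2.12 to 5.45 normalized counts. A gene was called changed at an adjusted p below 0.05 and a log2 difference beyond 0.5 in limma, with Benjamini-Hochberg adjustment over all genes of a fit. The labels were checked with marker genes. The summed level of 6 Treg markers was 1572 to 1736 in resting Tconvs and 10115 to 11003 in activated Tconvs. It was 37727 to 45261 in tTregs and 19776 to 26116 in iTregs. Its members differ. Foxp3 averaged 10.4 in resting Tconvs, 7537 in resting tTregs and 1280 in resting iTregs, and Ikzf2 averaged 195, 9403 and 167. Activation alone raised Il2ra in Tconvs from a mean of 39.7 to 4351, beside 11560 in resting iTregs. The sum alone thus does not set iTregs apart from activated cells. Of the B cell markers, Ms4a1 was at 0 throughout, while Cd79b averaged 124 in resting tTregs, 100 in activated tTregs, 7.97 in resting Tconvs and 31.9 in resting iTregs. Intervals come from limma and rest on the spread between libraries, shared by all groups of a fit, while floors come from read counts. An interval can thus be too narrow for a group whose libraries vary more, as those of tTregs do for Myc and Mxd1.

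**Figure D1:**
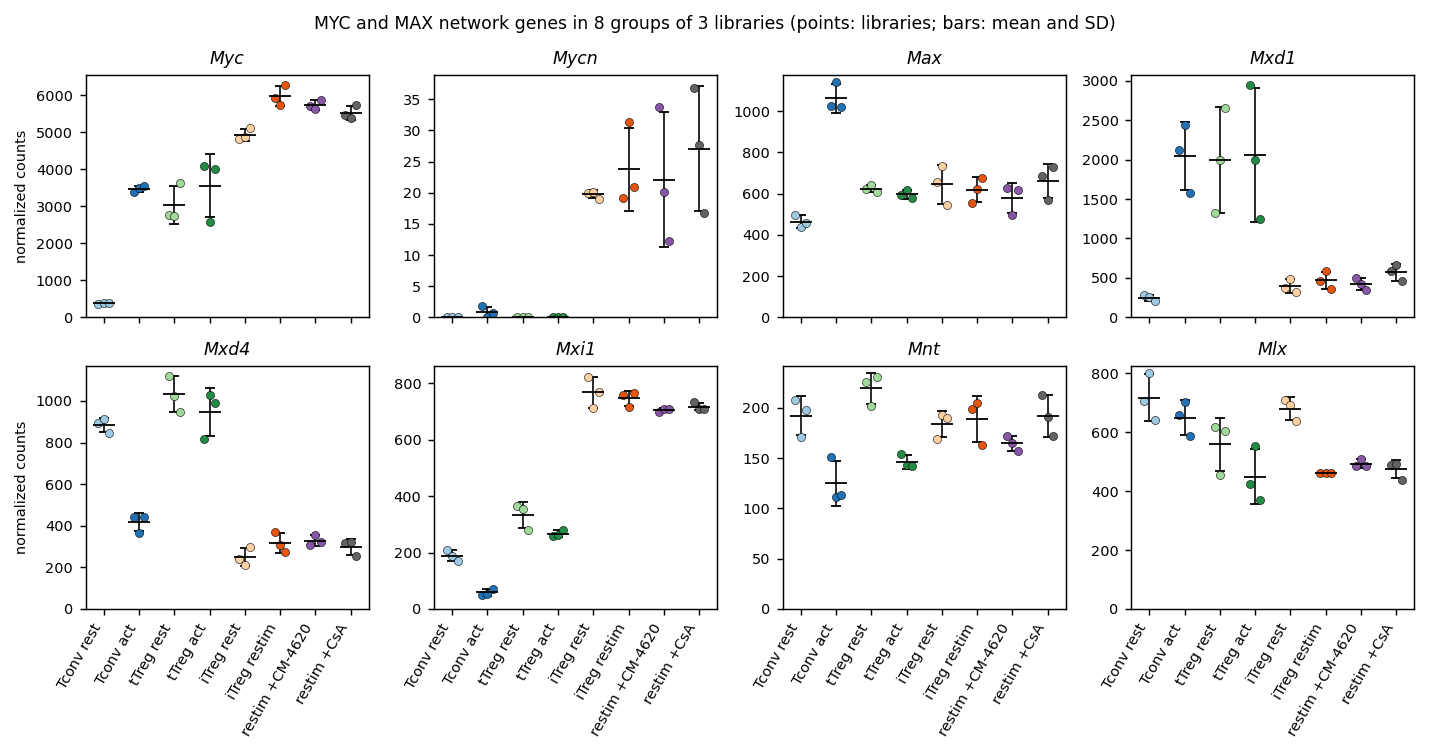
Normalized counts of the 8 genes (y axis, linear, from 0) in each group (x axis). Points are libraries, and bars are the mean and SD of 3 libraries. Myc in resting Tconvs lies at 363 to 393 and at 2586 or more in every other library, Mycn reaches 12.3 or more in iTreg libraries alone, and Mxd1 is high in activated Tconvs and tTregs whereas Mxi1 is high in iTregs.

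Activation of Tconvs changed 6 of the 8 genes, 3 upward and 3 downward, beside 50.2% of all genes tested (24.5% higher and 25.7% lower). The activator Myc, its partner Max and the repressor Mxd1 rose, and the repressors Mxd4, Mxi1 and Mnt fell. Myc, the activator of growth genes, was at 363, 384 and 393 normalized counts in the resting libraries and at 3384, 3491 and 3539 in the activated ones. The groups lay far apart, and the mean was 9.14-fold higher after activation (log2 difference 3.19, 95% interval 2.88 to 3.50, limma adjusted p = 1.34e-10). Max, the obligate partner, went from 437, 458 and 498 to 1019, 1026 and 1142 (log2 difference 1.19, limma adjusted p = 9.48e-08). Every activated library thus held more Max than every resting one, with the means 2.29-fold apart.

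Among the repressors, Mxd1 behaved like Myc. It was at 212, 255 and 282 normalized counts in resting Tconvs and at 1576, 2118 and 2432 in activated Tconvs (log2 difference 3.01, 95% interval 2.39 to 3.63, limma adjusted p = 3.95e-07). The MXD1 protein is best known from cells that leave the cycle and differentiate, and its mRNA rose 8.18-fold in the same libraries as that of Myc. Mxd4 fell from 848, 896 and 912 to 367, 442 and 442 (log2 difference -1.09, limma adjusted p = 3.25e-06). Mxi1, also called Mxd2, fell from 170, 186 and 209 to 50.3, 53.5 and 72.2 (log2 difference -1.68, limma adjusted p = 1.07e-07). For neither gene did the groups overlap, and the means were 2.12-fold and 3.21-fold lower after activation. Mnt, the repressor expressed most evenly across tissues, fell from 171, 198 and 208 to 111, 113 and 151 (log2 difference -0.63, limma adjusted p = 0.000821). The 2 genes not called were Mlx, with a log2 difference of -0.14 (interval -0.46 to 0.17), and Mycn, which had at most 2 reads in any Tconv library.

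The 3 natural killer cell markers summed to 420 to 426 normalized counts in resting Tconvs and 15.3 to 23.3 in activated Tconvs. Klrd1 made up most of these sums, with means of 396 and 16.9. Klrb1c averaged 22.7 and 1.28, and Ncr1 averaged 2.75 and 0.771, with a lowest value of 0 in both groups. The 2 CD8 T cell markers summed to 223 to 236 and 110 to 123. Of these, Cd8b1 averaged 229 and 112, whereas Cd8a was low and did not fall, at 2.57 and 2.81. Their part in the Tconv differences was not tested. In bulk RNA, fewer cells of a type and less RNA per cell cannot be told apart.

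In tTregs most genes of the network were not called. Of the 8 genes 1 was called after activation, Mnt, which fell, beside 21.9% of all genes (11.9% higher and 10.0% lower). Mnt went from 202, 226 and 231 normalized counts to 142, 143 and 154, without overlap (log2 difference -0.59, 95% interval -0.87 to -0.30, limma adjusted p = 0.00376). Myc stood at 2737, 2764 and 3640 in resting tTregs and at 2586, 4009 and 4095 in activated tTregs. The groups overlapped, and the difference was 0.21 on the log2 scale with an interval of -0.11 to 0.52, which excludes the response of Tconvs (limma adjusted p = 0.291). The spread behind this interval is shared with Tconvs and resting iTregs, whose Myc libraries varied less. The SD of Myc was 514 normalized counts in resting and 848 in activated tTregs. It was 15.4 in resting Tconvs, 79.3 in activated Tconvs and 166 in resting iTregs. The interval may thus be too narrow for tTregs. Mxd1 varied more between tTreg libraries than any other of the genes, with 1319, 1996 and 2658 at rest and 1244, 1997 and 2940 after activation, so that its interval of -0.60 to 0.64 leaves room for a moderate change either way. Max (log2 difference interval -0.28 to 0.15), Mxd4 (-0.40 to 0.14), Mxi1 (-0.61 to -0.00) and Mlx (-0.64 to -0.00) were not called either.

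The difference between the responses was tested as an interaction. It was called for 5 of the 8 genes, 3 upward and 2 downward, beside 34.7% of all genes (17.0% higher and 17.7% lower). The Tconv response exceeded that of tTregs by 2.98 for Myc (95% interval 2.54 to 3.42), by 2.99 for Mxd1 (2.11 to 3.87) and by 1.26 for Max (0.95 to 1.56) on the log2 scale. It was lower by a log2 value of -0.96 for Mxd4 and -1.37 for Mxi1. The limma adjusted p of these 5 genes ranged from 5.5e-08 for Myc to 0.000736 for Mxd4. Mnt is the exception among the repressors, since its fall in Tconvs and in tTregs differed by a log2 value within the interval -0.44 to 0.36.

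The cells also began from unequal levels. Resting tTregs held more Myc, Mxd1 and Mxi1 than resting Tconvs, 3 of the 8 genes upward and 0 downward, beside 38.6% of all genes (20.5% higher and 18.2% lower). Myc was 8.02-fold higher in resting tTregs (log2 difference 2.99, limma adjusted p = 3.38e-10), and Mxd1 was 7.97-fold higher (limma adjusted p = 8.2e-07), beside the 9.14-fold and 8.18-fold of activation in Tconvs. Mxi1 at 280, 353 and 366 normalized counts lay above the 170 to 209 of resting Tconvs (log2 interval 0.51 to 1.12, limma adjusted p = 0.000242). Max was higher by an amount within the interval 0.21 to 0.64 and passed the p threshold (limma adjusted p = 0.0024) without reaching 0.5. In the order of group means of Myc, resting tTregs, activated Tconvs and activated tTregs overlapped as neighbors, whereas resting Tconvs stood apart below them and the iTreg groups above them. The 3 natural killer cell markers, at 420 to 426 in resting Tconvs, were at 0 in tTregs, and the B cell marker Cd79b was at 5.27 to 9.38 in resting Tconvs and 122 to 126 in resting tTregs. Their part in these differences was not tested. The same resting Tconv libraries serve the comparisons with tTregs, with iTregs and with activated Tconvs.

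**Figure D2:**
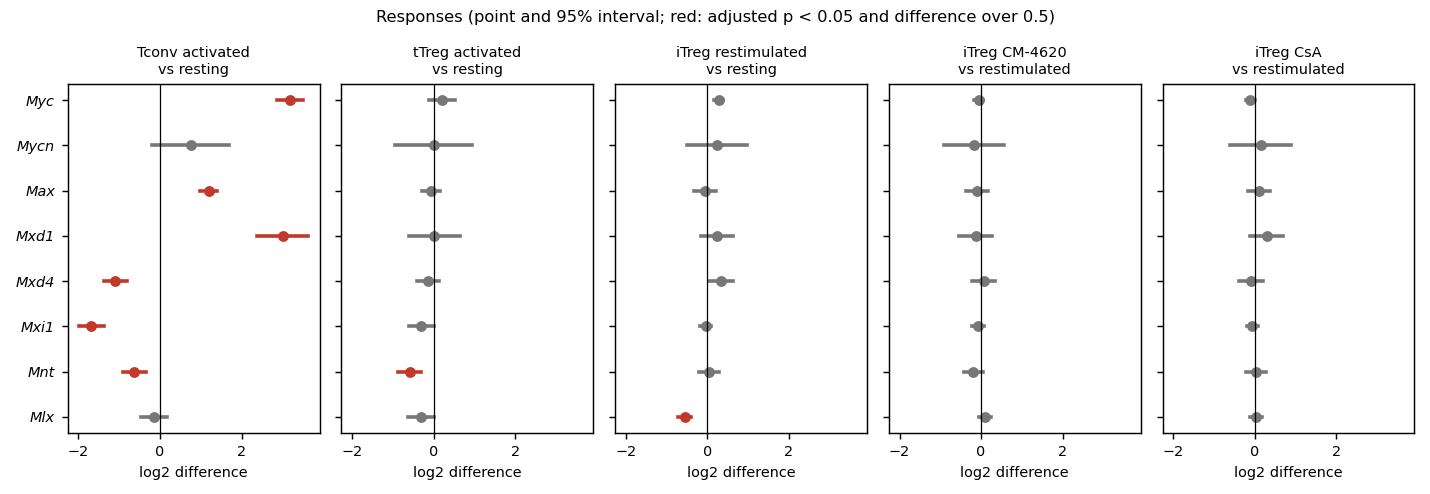
Log2 difference (x axis) of each gene (y axis) in 5 comparisons, with the 95% interval of the limma fit as a line. Red marks an adjusted p below 0.05 with a difference beyond 0.5. It marks 6 genes in Tconvs, Mnt in tTregs, Mlx on restimulation of iTregs and 0 genes with either inhibitor.

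Resting iTregs carried the network in another composition. Compared with resting Tconvs, 3 genes were higher and 1 was lower, beside 63.6% of all genes (32.8% higher and 30.8% lower). Compared with resting tTregs 3 were higher and 2 lower, beside 63.4% (32.3% higher and 31.1% lower). Mycn is 1 of the 3 higher genes in both counts, and it passed the filter on low values only through the iTreg libraries, where it is high. Myc was at 4809, 4872 and 5122 normalized counts, above every library of Tconvs and tTregs. That is 13.0-fold over resting Tconvs (log2 difference 3.70, limma adjusted p = 9.97e-12) and 1.62-fold over resting tTregs (0.71, limma adjusted p = 0.000492), the latter 0.42 and not called under quantile normalization. Against activated Tconvs it was 1.42-fold higher (log2 difference 0.51, limma adjusted p = 0.00865), which only just exceeds the threshold and falls to 0.49 in edgeR and DESeq2 on the recovered reads.

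Mycn, which is better known from progenitor cells and neural tissue than from mature T cells, was detected above the floor in iTreg libraries alone. It was at 0 reads in all resting Tconv, resting tTreg and activated tTreg libraries and at 0, 0.708 and 1.80 normalized counts in activated Tconvs. Resting iTregs held 19.0, 20.0 and 20.2. With 3 reads per library as the floor, the level was at least 6.93-fold higher than in resting Tconvs, 5.90-fold higher than in resting tTregs and 4.80-fold higher than in activated tTregs. Mycn entered the tests through the iTreg libraries only, so it had to differ there and no p is given. Per kb of exon it made up 0.329% ± 0.0213 (SD, n = 3) of the sum of Myc and Mycn in resting iTregs.

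The repressors differed in opposite directions. Mxi1 reached 714, 768 and 823 normalized counts in resting iTregs, against 170 to 209 in resting Tconvs and 50.3 to 72.2 in activated Tconvs. No library of another cell type came near, the highest being a resting tTreg library at 366. The log2 difference was 2.03 from resting Tconvs (limma adjusted p = 6.08e-09), 1.21 from resting tTregs (limma adjusted p = 2.1e-06) and 3.70 from activated Tconvs (limma adjusted p = 3.41e-11), the last a 13.1-fold difference of means. Mxd4 was at 212, 242 and 299, below all Tconv and tTreg libraries, with a log2 difference of -1.83 from resting Tconvs (limma adjusted p = 5.58e-09) and -2.05 from resting tTregs (limma adjusted p = 1.95e-09). Mxd1, so high in tTregs and activated Tconvs, was at 328, 375 and 493. This is 4.99-fold below resting tTregs (log2 difference -2.28, limma adjusted p = 4.67e-06) and 5.12-fold below activated Tconvs (-2.35, limma adjusted p = 7.34e-06). Against resting Tconvs Mxd1 differed by 0.66 (interval 0.04 to 1.28) and missed the threshold (limma adjusted p = 0.0522), although it passed when only these groups were fitted.

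Against activated Tconvs, 4 genes were higher in resting iTregs and 3 lower, beside 41.6% of all genes (22.9% higher and 18.7% lower). The 4 again include Mycn, which passed the filter through the iTregs alone. Max was lower in iTregs, at 545, 658 and 734 normalized counts against 1019 to 1142 (log2 interval -0.94 to -0.51, limma adjusted p = 2.32e-05). Mnt was higher, at 169, 190 and 193 against 111 to 151 (interval 0.28 to 0.85, limma adjusted p = 0.00222). Mlx did not pass in any of the comparisons of resting iTregs.

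To set activators and repressors side by side, levels were divided by the exon length of each gene, since longer genes collect more reads. The ratio of Myc plus Mycn to Mxd1, Mxd4, Mxi1 and Mnt, per kb, was 0.672 ± 0.0638 (SD, n = 3) in resting Tconvs and 3.48 ± 0.626 in activated Tconvs. It was 2.25 ± 0.205 in resting and 2.88 ± 1.05 in activated tTregs, which overlap. In resting iTregs it was 7.65 ± 0.338, and from 7.86 ± 0.980 to 8.93 ± 0.590 in the restimulated groups. All iTreg libraries thus lay above all others, the closest being 7.19 with CsA and 4.20 in an activated Tconv library. These are mRNA ratios of annotated exon length and say nothing of protein. The ratio also depends on which repressors are counted. With Mxd3 included, it was 3.24 ± 0.171 in resting iTregs and 3.42 ± 0.614 in activated Tconvs, which overlap.

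Among these 4 repressors, without Mxd3, the leading gene differed between the cell types. Mxd4 made up 50.0% ± 2.03 (SD, n = 3) of the summed level per kb in resting Tconvs. After activation Mxd1 made up 76.8% ± 5.09, and Mxi1 2.39% ± 0.887. In tTregs Mxd1 led as well, with 55.3% ± 10.4 at rest and 59.8% ± 11.5 after activation. In resting iTregs Mxi1 led with 47.3% ± 3.59 and stayed between 40.3% and 43.6% on average in the restimulated groups. The summed level per kb was 209 ± 11.6 in resting Tconvs and 238 ± 2.90 in resting iTregs, without overlap. With Mxd3 added, Mxd3 led in resting iTregs with 57.6% ± 1.32 and Mxi1 made up 20.0% ± 0.908, and the sum was 563 ± 15.8 there and 211 ± 11.7 in resting Tconvs.

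**Figure D3:**
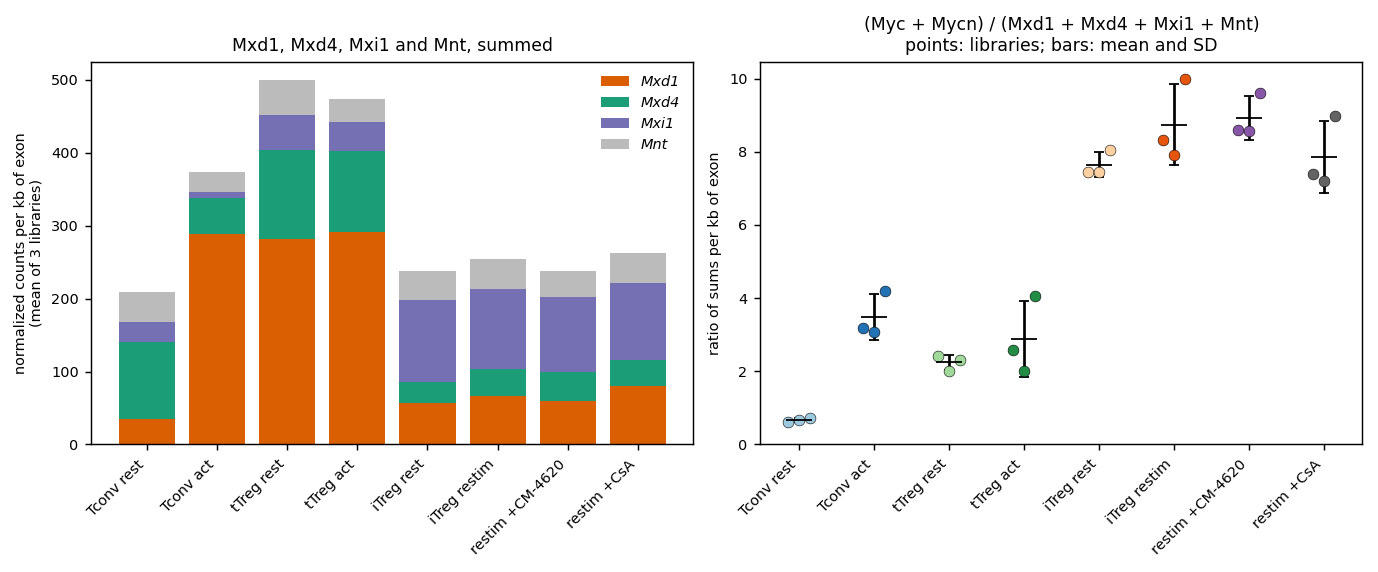
Left, mean level per kb of exon of 4 repressor genes, without Mxd3, in each group, stacked (y axis from 0). Right, the ratio of Myc plus Mycn to that sum in each library, with mean and SD of 3. Mxd4 fills 50.0% of the bar of resting Tconvs, Mxd1 76.8% of that of activated Tconvs and Mxi1 47.3% of that of resting iTregs, and the ratio is 7.19 or more in every iTreg library.

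Restimulation of iTregs called 1 of the 8 genes, Mlx, which fell, beside 12.8% of all genes (6.70% higher and 6.13% lower). Mlx was at 637, 692 and 711 normalized counts at rest and at 461, 462 and 463 after restimulation (log2 difference -0.56, 95% interval -0.71 to -0.41, limma adjusted p = 3.05e-05). The groups did not overlap. Its overlap with Psmc3ip, given above, means that it is uncertain which of the pair lost reads. Myc was at 4809 to 5122 before and 5748 to 6269 after restimulation, without overlap, and passed the p threshold (limma adjusted p = 0.000944). Its log2 difference of 0.28, with an interval of 0.17 to 0.39, was under the threshold of 0.5 and far under the response of Tconvs. Mxd4 (0.05 to 0.63), Mxd1 (-0.16 to 0.63), Max (-0.32 to 0.21), Mnt (-0.21 to 0.28), Mxi1 (-0.18 to 0.10) and Mycn (-0.51 to 0.97) were not called, and their intervals are on the log2 scale.

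Tested directly, the Tconv response differed from that of iTregs for 6 of the 8 genes, beside 44.2% of all genes (22.6% higher and 21.7% lower). The differences on the log2 scale were 2.91 for Myc, 2.78 for Mxd1 and 1.25 for Max upward, and -1.43 for Mxd4, -1.64 for Mxi1 and -0.66 for Mnt downward. The tTreg response differed from that of iTregs for 1 of the 8 genes, Mnt (log2 difference -0.62, limma adjusted p = 0.0126), beside 21.3% of all genes (12.3% higher and 9.01% lower). The durations of stimulation may not match between cell types, as the labels do not state them.

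Neither inhibitor of calcium signaling moved a gene of the network past the thresholds. With CM-4620, 0 of 8 genes were called against restimulated iTregs, beside 3.30% of all genes (1.50% higher and 1.79% lower), and with CsA 0 of 8, beside 2.92% (1.57% higher and 1.35% lower). By limma at an unadjusted p under 0.05, this was 0 genes for CM-4620 and 1 gene for CsA, Myc, beside 20.6% and 22.8% of all genes, and edgeR and DESeq2 called 0 as well. Both comparisons use the same restimulated libraries. Myc was at 5620, 5717 and 5887 normalized counts with CM-4620 and at 5388, 5470 and 5749 with CsA. Its log2 difference from restimulated iTregs lay within -0.17 to 0.05 and within -0.22 to -0.00 (limma adjusted p = 0.598 and 0.216). A fall of Myc to its level in resting iTregs, estimated as 0.28 lower, lies outside both intervals. That estimate has its own interval of 0.17 to 0.39, which overlaps the CsA interval in size and meets the bound of CM-4620. The inhibitor groups were not tested against resting iTregs, though each of their libraries lay above the highest resting one, at 5122.

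Mlx was at 484, 485 and 510 with CM-4620 and at 439, 489 and 494 with CsA. All 6 libraries were below the 637 of the lowest resting iTreg library, and the intervals of the difference from restimulated iTregs were -0.06 to 0.24 and -0.12 to 0.18. Mxd1, the least precise of the repressors, had intervals of -0.53 to 0.26 and -0.11 to 0.68, so that a moderate change was not excluded. Mycn was at 12.3, 20.2 and 33.7 with CM-4620 and at 16.8, 27.7 and 36.8 with CsA. The restimulated libraries were at 19.1, 20.9 and 31.4, so that the groups overlapped while 4 of the 6 inhibitor libraries lay outside that range. Between CM-4620 and CsA 0 of 8 genes were called, beside 0.360% of all genes (0.0991% higher and 0.261% lower), by limma, edgeR and DESeq2 alike. In limma 1 gene had an unadjusted p under 0.05, Mxd1 (interval -0.82 to -0.02, adjusted p = 0.42), beside 11.2% of all genes.

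Of the other genes of the network, Mycl and Mlxipl did not pass the filter on low values, and Mxd3, Mga and Mlxip did. Mxd3, a MAX partner known from cells in S phase, was at 4.69 to 6.17 normalized counts in resting Tconvs and at 734 to 810 in resting iTregs, 136-fold higher (log2 difference 6.86, limma adjusted p = 6.93e-13). Activation raised it in Tconvs (log2 difference 1.29, limma adjusted p = 9.47e-05) and in tTregs (0.94, limma adjusted p = 0.00371), to at most 26.9 normalized counts. In iTregs it fell on restimulation to 391 to 546 (log2 difference -0.75, limma adjusted p = 7.4e-05). With CM-4620 it was at 582 to 641 and with CsA at 585 to 686, between both states, and the log2 differences of 0.43 and 0.44 passed the p threshold but not that of 0.5 (limma adjusted p = 0.0204 and 0.0174). Mga, a very large MAX partner of a repressive complex, and Mlxip, the MONDO partner of MLX, fell in activated Tconvs (log2 differences -1.01 and -0.82) and in activated tTregs (-0.59 and -0.67). The interaction was called for none of Mxd3, Mga and Mlxip.

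Txnip, an inhibitor of glucose uptake and a known target of MLX with MONDO proteins, followed the stimulus in all cell types. It fell from 3656 to 3873 normalized counts to 662 to 750 in Tconvs, from 2494 to 3467 to 1477 to 2149 in tTregs and from 1160 to 1522 to 670 to 726 in iTregs. On the log2 scale these are -2.41, -0.69 and -0.90 (limma adjusted p = 2.6e-09, 0.00243 and 2.48e-06). In restimulated iTregs it was higher with CM-4620, at 989 to 1095 (log2 difference 0.55, limma adjusted p = 0.00095), and with CsA, at 1176 to 1312 (0.82, limma adjusted p = 5.29e-05). Arrdc4, the other listed target, had at most 18.2 normalized counts in any library and was called for no stimulus or inhibitor.

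**Figure D4:**
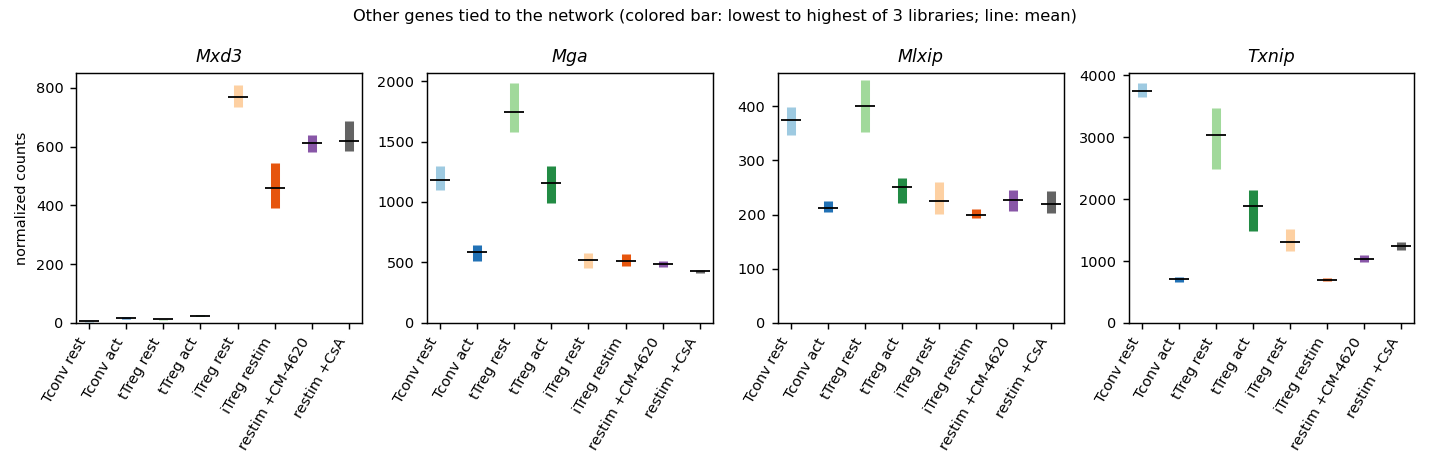
Normalized counts (y axis, from 0) of Mxd3, Mga, Mlxip and Txnip in each group (x axis), as the range of 3 libraries with the mean as a line. Mxd3 is at 391 to 810 in iTreg libraries and at 26.9 or less elsewhere, and Txnip rises from 670 to 726 in restimulated iTregs to 1176 to 1312 with CsA.

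Genes that MYC is known to induce, 30 of them in the list used, were read beside the network. In activated Tconvs 29 of 30 rose and 0 fell, beside 24.5% and 25.7% of all genes, with a median log2 difference of 1.12 against -0.04 over all genes. Examples are Tfrc, the transferrin receptor (log2 difference 3.87), Srm, which makes spermidine (2.52), and Ccnd2, a cyclin (2.52). In activated tTregs 4 rose and 2 fell, beside 11.9% and 10.0% of all genes, with a median of 0.06 against 0.00. Hspe1, a mitochondrial chaperone, and Tfrc rose there (1.48 and 0.86), while Gnl3, a nucleolar protein, fell (-0.63). The interaction was called for 24 of 30, all with the larger value in Tconvs, as for 17.0% of all genes. In resting tTregs, where Myc was 8.02-fold higher than in resting Tconvs, 8 of 30 were higher and 1 lower. This stands beside 20.5% and 18.2% of all genes, with a median of 0.18 against -0.02. In resting iTregs 26 of 30 were higher than in resting Tconvs (median 1.26 against 0.02), beside 32.8% of all genes, led by Tfrc (6.04). Compared with resting tTregs, 23 were higher in resting iTregs and 1 lower (median 0.92 against 0.02), beside 32.3% and 31.1% of all genes. Set against activated Tconvs, 7 were higher in resting iTregs and 5 lower (median -0.00 against 0.02), beside 22.9% and 18.7% of all genes. On restimulation of iTregs 3 rose and 4 fell, beside 6.70% and 6.13% of all genes, among them Slc7a5, an amino acid transporter (-1.31), and with either inhibitor 0 of 30 were called, beside 3.30% of all genes with CM-4620 and 2.92% with CsA. By limma 10 of the 30 had an unadjusted p under 0.05 with CM-4620 and 9 with CsA, beside 20.6% and 22.8% of all genes, and edgeR and DESeq2 called 0.

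Of 5 genes that MYC is known to repress, Gadd45a, Cdkn1b and Ndrg1 fell in activated Tconvs (log2 differences -2.51, -2.06 and -1.03) and Cdkn1a, the p21 inhibitor of the cell cycle, rose (3.94). The share of all genes called there was 50.2%, for this list and the next lists. Among 19 cofactors of MYC and MXD proteins, 4 rose and 2 fell there, including the ATPase Ruvbl2 (1.25) and the corepressor Ncor1 (-0.72), and 2 rose in tTregs, where 21.9% of all genes were called. For the 10 genes of MYC protein turnover, 2 rose and 3 fell in activated Tconvs, which is near the share over all genes. Cip2a, which protects MYC from dephosphorylation, rose (2.75), and the deubiquitinase Usp28 fell (-3.17). Of the 5 genes that MYC is known to repress, Cdkn1a alone was called in activated tTregs, upward (1.58), beside 21.9% of all genes. In resting iTregs Cdkn1a and Ndrg1 were higher than in resting Tconvs, and Gadd45a and Cdkn1b lower, beside 32.8% and 30.8% of all genes.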

How the data were processed

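RNA from sorted T cells was sequenced in 24 libraries (8 groups of 3). According to the study's methods and processing notes, the authors trimmed reads with Cutadapt 1.18, aligned them to mm10 with STAR 2.5.3 and counted genes with RSEM 1.3.0. The deposited table holds a normalized signal, in which the counts of each library are divided by its size factor. They were whole multiples of each library's smallest value in 100% of cases (tolerance 0.01), which gave the reads. Of the 40 samples, 16 chromatin samples were not analysed here.

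Genes that reached 10 normalized counts in 3 or more libraries of a fit were tested as log2(value + 1) with limma 3.58.1 (R 4.3.3), with a trend, in 1 fit of the 15 resting and activated libraries, 1 of the 12 iTreg libraries and 1 of all 24 for differences between responses. Fold changes on this scale understate those of low genes. The scripts were tested on simulated data. Recovered reads were tested with edgeR 4.0.16 (quasi-likelihood) and DESeq2 1.42.0 as alternatives. The genes and lists were chosen with earlier results of these data known. Named genes are the 8 network genes, up to 3 called genes per direction of the other lists, Txnip and Arrdc4, and the genes whose group means correlate best with each network gene. Positions and exon lengths came from GENCODE, an older GRCm38 release than that of the authors.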

Additional observations from a re-analysis of the deposited data

Results flagged for a closer look

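The responses to stimulation differed between cell types by the interaction test in limma. Between Tconvs and tTregs, Tconv minus tTreg on the log2 scale, the values were 2.98 for Myc, 2.99 for Mxd1, 1.26 for Max, -0.96 for Mxd4 and -1.37 for Mxi1. Between Tconvs and restimulated iTregs they were 2.91 for Myc, 2.78 for Mxd1, 1.25 for Max, -1.43 for Mxd4, -1.64 for Mxi1 and -0.66 for Mnt. Both sets share the Tconv libraries. Between tTregs and iTregs Mnt differed by -0.62. No explanation of these differences was tested.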

How the results depend on the processing

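No called difference changed direction under any alternative run, and 1761 values kept their side of the threshold. Changes of sign among differences that were not called were not counted. With a filter of 100 normalized counts, which tests fewer genes, 878 genes were called on restimulation of iTregs and 213 for CsA. Leaving out 1 library at a time gave 26 to 30 genes called between CM-4620 and CsA, the lowest without CsA replicate 1. For the difference between tTreg and iTreg responses, 2 of the 8 genes were called under quantile normalization and 1 to 2 when 1 library was left out. The added gene was Mxd4, at -0.57 under quantile normalization and without restimulated iTreg replicate 3, -0.60 without resting iTreg replicate 3, and -0.53 without activated tTreg replicate 2 or resting tTreg replicate 3.

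The higher Myc of resting iTregs over activated Tconvs lost its call under quantile normalization (0.40), recomputed size factors, edgeR and DESeq2 (each 0.49), without resting iTreg replicate 3 (0.48) and without activated Tconv replicate 1 (0.49), and that over resting tTregs under quantile normalization (0.42). Mnt in iTregs against activated Tconvs lost its call under quantile normalization (0.46) and without activated Tconv replicate 2 or 3 (0.49 and 0.50). Mxd1 against resting Tconvs gained one with recomputed size factors (0.68), with these groups fitted alone (0.66) and without resting iTreg replicate 3 (0.79). Max there gained one without resting iTreg replicate 3 (0.58) or resting Tconv replicate 1 (0.52). The causes were not tested. Quantile normalization moved the median log2 difference of all genes from 0.02 to -0.12, -0.10 and -0.11 for resting iTregs against resting Tconvs, resting tTregs and activated Tconvs, and the genes called in the last from 2634 higher and 2150 lower to 2095 and 2835.

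Without division by length the ratio of activators to repressors was 0.252, 1.34, 0.854 and 1.08 in resting and activated Tconvs and resting and activated tTregs, and 3.09, 3.51, 3.56 and 3.16 in resting, restimulated, CM-4620 and CsA iTregs. Leaving out Mnt gave 0.840 in resting Tconvs, 2.49 in resting tTregs and 9.18, 10.4, 10.5 and 9.34 in the iTreg groups. Adding Mxd3, chosen after seeing the data, gave 3.24, 4.96, 4.28 and 3.92 there.

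The labels give the replicate numbers no shared origin, and in no comparison were all 3 correlations of same-numbered deviations above 0.1, so the numbers were not taken to pair the libraries. The correlations were 0.0343 to 0.0831 in Tconvs, -0.425 to -0.129 in tTregs, 0.0452 to 0.239 on restimulation of iTregs, 0.0562 to 0.286 for CM-4620 and 0.0986 to 0.302 for CsA. All 6 libraries correlated best with their own number in Tconvs, on restimulation, for CsA and for resting iTregs against resting or activated Tconvs. For CM-4620 3 of 6 did, and 2 of 6 for CM-4620 against CsA. In tTregs 0 of 6 did, as for resting tTregs against resting Tconvs or resting iTregs. This is a hint from the data and not the design. With replicate number as a block, 5742 genes were called in Tconvs, 1500 on restimulation, 420 for CM-4620 and 372 for CsA, and no call of a network gene changed.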

Other observations

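Across the 8 group means, the genes most like Myc among 11725 were Bcl3 (Pearson r = 0.992), Cdk6 (0.99) and Eml2 (0.99). The nearest gene was Stat5a for Mxd1 (0.984), Slc2a3, a glucose transporter, for Mxi1 (0.991), Gprasp1 for Mxd4 (0.996), Cpt1c for Mycn (0.997), Maoa for Max (0.955), Zfp286 for Mnt (0.967) and Mtdh for Mlx (0.977). These values describe 8 points that share libraries and scaling, and the best of many genes is high by selection.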
